A study of Mus musculus with 15 samples.

Results

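Complex I of the respiratory chain was examined through the 45 genes whose symbol starts with Nduf, taken by that symbol from the 23393 genes listed in 3 tables of kidney RNA. The tested kidneys came from C57BL/6 mice of the genotype ERRg fl/fl;Sim1-Cre, in which Cre driven from the Sim1 transgene acts on floxed alleles of Esrrg, the gene of the nuclear receptor ERRγ. Their controls were Cre-negative ERRg fl/fl littermates, so both genotypes carry the floxed alleles. Deletion is expected only in cells of lineages in which Cre has acted. The 15 libraries fall into 6 groups by their labels: 3 knockout and 2 control males at 3 weeks of age, 2 knockout and 2 control females at 3 weeks, and 3 knockout and 3 control males at 3 months. The design text names ERRγ-regulated genes of the kidney as the aim, and each table sets knockout against control within 1 sex and age.

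The data are the authors' own comparisons, with a mean normalized count over all libraries of a table, a log2 fold change, an SE (standard error) and an adjusted p-value, and no value per library, so no spread between single kidneys can be shown. The summed mean counts, in units of 1e6, were 47.5, 33.9 and 18.8 in 3-week males, 3-week females and 3-month males. By the fractional steps of the lowest means, 4, 4 and 5 libraries entered these tables, against 5, 4 and 6 labelled ones, with 2 on the side read as knockout each time. No header names the genotype on top of the ratio, which was taken to be the knockout, following the series title. Esrrg itself does not settle this: the authors' deposited tables give it 0.82 ± 0.20 in 3-week males, 1.04 ± 0.17 in 3-week females and -0.87 ± 0.57 without a p-value at 3 months (log2 fold change ± SE), and reads outside the deleted part may count towards it. The lower level of mitochondrial genes is part of that reading and no evidence for it, and if the ratio runs the other way, every direction given here is inverted. One label field calls the 3-month knockouts female where the title and sex label say male; Xist, the RNA of the inactive X, averaged 11.9 normalized counts in the authors' deposited table at 3 months, against 23849 in that of females. In whole-kidney RNA, fewer cells of a type and less RNA per cell cannot be told apart.

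Complex I takes electrons from NADH and passes them, through a flavin and a chain of iron-sulphur clusters, to ubiquinone, while its membrane arm moves protons out of the mitochondrial matrix. Its matrix arm is made of an NADH-oxidizing N module and a quinone-reducing Q module, whose core subunits are encoded in the nucleus, while the core of the membrane arm is encoded in mitochondrial DNA and was not analysed here. Accessory subunits surround the core, and assembly factors help to build the complex without staying in it. Kidney tubules are rich in mitochondria, since solute transport along the nephron depends on oxidative phosphorylation, and ERR receptors are known to act on genes of this pathway.

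The members span a wide range of levels. When the means of the authors' deposited tables were divided by GENCODE transcript length, Ndufa4 was highest, at 39374 mean normalized counts per kilobase in 3-week males, 29133 in 3-week females and 13370 in 3-month males (levels over both genotypes). Ndufb9 and Ndufa6 came next in the table of 3-week males, at 21943 and 21839 counts per kilobase, close to each other. Structural subunits other than Ndufs5, Ndufb4 and the acyl carrier Ndufab1 lay between 3917 and 21943 counts per kilobase on the same scale, whereas the 7 assembly factors lay between 628 and 1067. Ndufab1 at 231.9 and Ndufa4l2 at 364.3 were lower still in 3-week males. Ndufs5 is listed at a mean of 0 in both tables of males and 0.18 in that of females; RefSeq holds a near copy, Ndufs5-ps, and reads shared between copies may have been left uncounted, so Ndufs5 has no usable value. Near copies also exist for Ndufb4, Ndufab1, Ndufa11, Ndufa12 and Ndufs6, whose values are uncertain to that extent. In 17 members an exon overlaps a gene on the opposite strand and in 3 one on the same strand (GENCODE M21), and the sources used here do not state whether counting used strand.

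Knockout kidneys had less RNA of most Nduf genes in all 3 comparisons, to about the same median depth, and no member was called higher in any of them. In 3-week males 32 of 43 tested members fell (authors' deposited adjusted p under 0.05), where 8.52% of all 14657 tested genes fell and 8.81% rose. In 3-week females 35 of 44 fell, against 10.4% of 14146 genes that fell and 8.29% that rose. At 3 months 35 of 43 fell, in a table where 27.8% of 12828 genes fell and 29.8% rose. The median log2 fold change of tested members was -0.62, -0.53 and -0.63 in the authors' deposited tables of 3-week males, 3-week females and 3-month males, which puts the middle member at 65.1%, 69.4% and 64.5% of control, or at 154%, 144% and 155% if the ratio runs the other way; the medians of all tested genes were -0.01, 0.01 and 0.01. The tested members' fold changes ran from -0.83 to -0.18, from -0.84 to 0.12 and from -1.24 to 0.48 in the same order of the authors' deposited tables. Their spread (SD over members) was 0.17 in 3-week males, near the median SE of 0.18 of a single gene. It was 0.21 in 3-week females and 0.36 at 3 months, above the median SEs of 0.12 and 0.11. Of the 42 members tested in every table, 27 fell in all 3, against 3.76% of 11928 genes.

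These counts depend on the authors' scaling. If the summed counts of both genotypes are set equal instead, every log2 fold change moves up by 0.18, 0.15 and 0.49 in 3-week males, 3-week females and 3-month males. The share of higher among all called genes is then 75.2%, 74.0% and 84.0%, against 50.8%, 44.2% and 51.7% as deposited. Of the 14657, 14146 and 12828 tested genes, 2830, 3305 and 8462 are then called, of which 2129, 2446 and 7107 are higher. Under that scaling 17, 26 and 13 of 43, 44 and 43 tested members fell, with member medians of -0.44, -0.38 and -0.14. At 3 months 5 members then rose: Ndufa11, Ndufa2, Ndufa4l2, Ndufa7 and Ndufaf5. With that scaling, 11 members negative as deposited at 3 months had a positive value. At 3 months the Y-linked genes Ddx3y, Uty and Kdm5d also fell, at -0.65 ± 0.10, -0.59 ± 0.17 and -0.42 ± 0.16 in the authors' deposited table, while Eif2s3y at -0.31 ± 0.20 was not called.

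**Figure D1:**
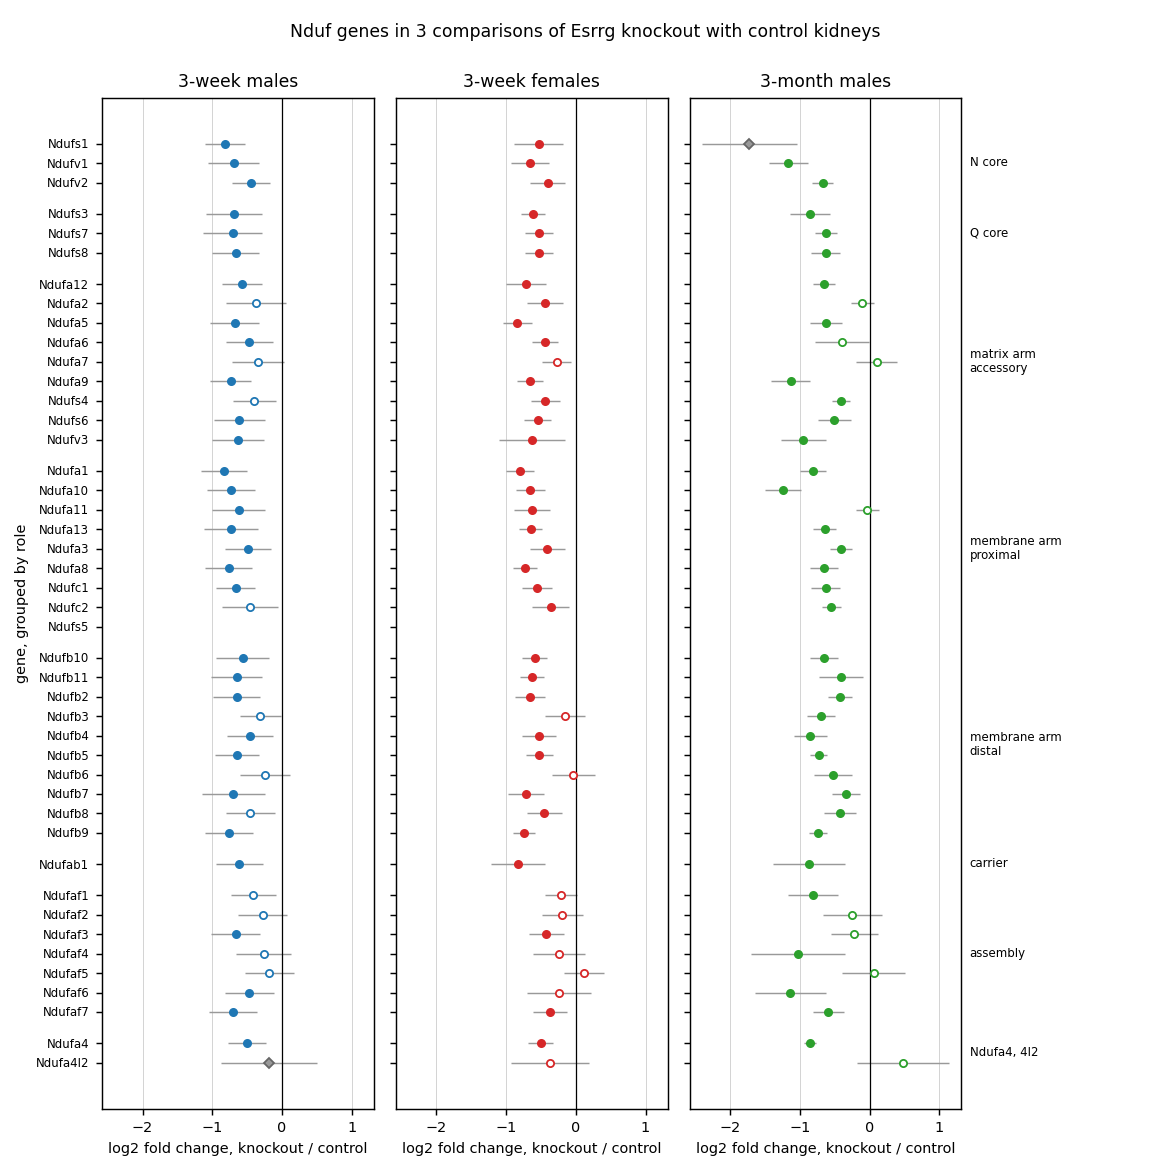
Log2 fold change (x axis, knockout over control) of Nduf genes (y axis, grouped by role) in 3-week males, 3-week females and 3-month males, from the authors' deposited tables. Bars span the 95% interval; filled points were called lower, open points were not called and grey diamonds have no p-value; most points lie left of 0, and Ndufs5 has no usable value.

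All core subunits of the N module fell wherever they were tested. Ndufv1, which binds NADH and the flavin, was at -0.69 ± 0.19, -0.66 ± 0.14 and -1.16 ± 0.14 in the authors' deposited tables of 3-week males, 3-week females and 3-month males (log2 fold change ± SE; adjusted p = 0.00264, 2.97e-05 and 3.17e-15). Ndufv2, an iron-sulphur subunit beside it, was at -0.44 ± 0.14, -0.40 ± 0.13 and -0.68 ± 0.07 in the same authors' deposited tables (adjusted p = 0.0142, 0.0139 and 9.23e-19). Ndufs1, the largest core subunit, which carries several iron-sulphur clusters, was at -0.82 ± 0.15 and -0.53 ± 0.18 at 3 weeks in males and females (adjusted p = 1.31e-06 and 0.0186, authors' deposited tables). At 3 months the authors' deposited table lists Ndufs1 at -1.72 ± 0.35 with the status Outlier and no p-value, so this value, the lowest of any member, is not a called fall.

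The core subunits of the Q module described here fell in each comparison. Ndufs3, a scaffold of the module, was at -0.69 ± 0.20, -0.61 ± 0.09 and -0.86 ± 0.15 in the authors' deposited tables of 3-week males, 3-week females and 3-month males (adjusted p = 0.00668, 1.60e-10 and 4.73e-08). Ndufs7, which holds the last iron-sulphur cluster before the quinone, was at -0.71 ± 0.21, -0.52 ± 0.10 and -0.63 ± 0.08 (authors' deposited tables; adjusted p = 0.00803, 8.79e-06 and 7.08e-14). Ndufs8, another iron-sulphur subunit, was at -0.67 ± 0.17, -0.53 ± 0.10 and -0.63 ± 0.11 (authors' deposited tables; adjusted p = 0.00136, 8.74e-06 and 1.53e-08). In 3-week males these values lay within 1 SE of each other, and at 3 months Ndufs3 lay below Ndufs7 and Ndufs8.

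Of the 9 accessory subunits of the matrix arm, 6, 8 and 6 fell in 3-week males, 3-week females and 3-month males, with medians of -0.57, -0.54 and -0.51 in the authors' deposited tables. Ndufa9, a nucleotide-binding subunit near the quinone site, was at -0.74 ± 0.15, -0.66 ± 0.10 and -1.13 ± 0.14 (authors' deposited tables; adjusted p = 1.54e-05, 5.93e-10 and 3.48e-14). Ndufa5 had the lowest value of all members in 3-week females, -0.84 ± 0.11 in the authors' deposited table (adjusted p = 8.07e-13), and was at -0.68 ± 0.18 and -0.63 ± 0.12 in 3-week and 3-month males. Ndufa12, Ndufs6, which binds zinc, and Ndufv3 fell in all 3 comparisons, with values between -0.51 and -0.95 in the authors' deposited tables. Ndufs4, whose loss in mice causes a fatal encephalopathy, fell in females and at 3 months, at -0.44 ± 0.11 and -0.41 ± 0.07, and was at -0.39 ± 0.16 without a call in 3-week males (authors' deposited adjusted p = 0.000687, 1.51e-09 and 0.0664). Ndufa7 was called nowhere, at -0.35 ± 0.19, -0.28 ± 0.11 and 0.10 ± 0.15 in the authors' deposited tables. Ndufa2 fell in 3-week females and Ndufa6, a subunit that docks the acyl carrier, in both sexes at 3 weeks; at 3 months the authors' deposited table has them at -0.11 ± 0.08 and -0.40 ± 0.20 without a call.

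Of the 9 accessory subunits listed for the proximal membrane arm, 8 were tested and 7, 8 and 7 of these fell in 3-week males, 3-week females and 3-month males (medians -0.70, -0.64 and -0.64 in the authors' deposited tables). Ndufa1, encoded on the X chromosome (37187588 to 37191163, minus strand, GRCm38), had the lowest value in 3-week males, -0.83 ± 0.17, beside -0.80 ± 0.11 in 3-week females and -0.81 ± 0.10 at 3 months (authors' deposited tables; adjusted p = 1.67e-05, 2.20e-12 and 9.37e-16). Ndufa8, a subunit of the intermembrane space side, was at -0.76 ± 0.17, -0.72 ± 0.09 and -0.66 ± 0.10 in the authors' deposited tables (adjusted p = 0.000132, 4.40e-14 and 1.37e-09). Ndufa10, which has a nucleoside kinase fold, had the lowest value of the called members at 3 months, -1.24 ± 0.13, beside -0.73 ± 0.17 and -0.66 ± 0.11 in 3-week males and females (authors' deposited tables; adjusted p = 1.13e-20, 0.000412 and 2.33e-08). Ndufa11, a membrane protein at the contact of complex I with complex III, fell at 3 weeks, at -0.62 ± 0.19 in males and -0.62 ± 0.13 in females, and was at -0.03 ± 0.09 at 3 months (authors' deposited tables; adjusted p = 0.0116, 4.95e-05 and 0.762). Ndufa13, Ndufa3 and Ndufc1 fell in all 3 comparisons, with values from -0.74 to -0.41 in the authors' deposited tables, and Ndufc2 fell in females and at 3 months.

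The 10 subunits of the distal membrane arm fell in 7, 8 and 10 cases in 3-week males, 3-week females and 3-month males, with medians of -0.61, -0.56 and -0.59 in the authors' deposited tables. Ndufb9, the most abundant of them per kilobase, was at -0.76 ± 0.18, -0.74 ± 0.08 and -0.74 ± 0.07 (authors' deposited tables; adjusted p = 0.000241, 2.13e-17 and 5.52e-27). Ndufb10, the X-linked Ndufb11, Ndufb2, Ndufb4, Ndufb5 and Ndufb7 also fell in every comparison, with values from -0.85 to -0.34 in the authors' deposited tables. Ndufb8, a subunit often used as a marker of complex I protein, fell in 3-week females and at 3 months. Ndufb3 and Ndufb6 fell at 3 months, at -0.70 ± 0.10 and -0.53 ± 0.14, and were at -0.31 ± 0.15 and -0.24 ± 0.18 in 3-week males and -0.16 ± 0.15 and -0.03 ± 0.16 in 3-week females without a call (authors' deposited tables). Ndufab1, the mitochondrial acyl carrier protein that sits in both arms, fell in all 3 comparisons, at -0.61 ± 0.17, -0.83 ± 0.20 and -0.87 ± 0.27 in the authors' deposited tables (adjusted p = 0.0038, 0.000469 and 0.00254).

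Of the 7 assembly factors named Nduf, 3, 2 and 4 fell, with medians of -0.41, -0.24 and -0.60 in 3-week males, 3-week females and 3-month males (authors' deposited tables), and whether they differ from the subunits was not tested. Ndufaf7, a protein arginine methyltransferase, was the only one to fall in every comparison, at -0.70 ± 0.17, -0.38 ± 0.12 and -0.60 ± 0.11 in the authors' deposited tables. Ndufaf3, which acts on the Q module, fell at 3 weeks in both sexes, at -0.67 ± 0.18 and -0.42 ± 0.13, and its partner Ndufaf4 fell at 3 months, at -1.02 ± 0.34 (authors' deposited tables). Ndufaf6 fell in both tables of males, at -0.47 ± 0.18 at 3 weeks and -1.14 ± 0.26 at 3 months, and Ndufaf1, a membrane arm factor, fell at 3 months, at -0.82 ± 0.18 (authors' deposited tables). Ndufaf2, a relative of Ndufa12, and Ndufaf5, which hydroxylates Ndufs7 in human cells, were called in no table, and Ndufaf5 was at 0.12 ± 0.15 in 3-week females and 0.06 ± 0.23 at 3 months in the authors' deposited tables. Of 8 assembly factors with other names (Acad9, Ecsit, Timmdc1, Tmem126b, Tmem186, Foxred1, Nubpl and Tmem70), 4, 2 and 7 fell, with medians of -0.41, -0.12 and -0.92 in the authors' deposited tables.

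Ndufa4 carries the family's name but is known as a subunit of complex IV. It fell in 3-week males, 3-week females and 3-month males, at -0.50 ± 0.14, -0.51 ± 0.09 and -0.86 ± 0.04 (authors' deposited tables; adjusted p = 0.00405, 7.68e-07 and 2.62e-88). Ndufa4l2, its hypoxia-responsive relative, had no call: the authors' deposited tables give -0.19 ± 0.35 with the status Outlier, -0.37 ± 0.29 and 0.48 ± 0.34. At a mean of 64.5 normalized counts at 3 months in the authors' deposited table it was also the least abundant tested member.

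Since the members moved together, their promoters were searched for short motifs, in the window from 250 bases before to 50 after the start site (RefSeq, GRCm38.p6, both strands). An entry was found for 39 of the 45 members. The core site of ERR receptors, AAGGTCA, was in 3 members (7.69%), against 5.38% of 27025 genes, and its extended form TNAAGGTCA, which contains it, in 1 (2.56% against 1.43%). The 3 with this site were Ndufb4, Ndufb2 and Ndufs5. Other searched motifs were CGCATGCG, the core of the NRF1 site and its own reverse complement, in 10.3% of members against 2.07% of genes, AAGATGGCG, a YY1 site, in 12.8% against 1.64%, and CCGGAAG, an ETS site, in 12.8% against 9.93%. The YY1 letters were in Ndufc1, Ndufa9, Ndufs7, Ndufs6 and Ndufs4, each from 22 to 35 bases after the start site, and the NRF1 letters in Ndufa8, Ndufa11, Ndufaf4 and Ndufaf5. A match is letters in a window, not binding. The 250 bases before the start site are shown for the 2 called members with an ERR core site, with its letters (for Ndufb4 the extended form) in capitals, and for Ndufa11, the member whose fold change differed between ages, with the NRF1 letters in capitals. They lie at chr16:37654369-37654618 on the minus strand (Ndufb4), chr6:39592315-39592564 on the plus strand (Ndufb2) and chr17:56717512-56717761 on the plus strand (Ndufa11).
Ndufb4: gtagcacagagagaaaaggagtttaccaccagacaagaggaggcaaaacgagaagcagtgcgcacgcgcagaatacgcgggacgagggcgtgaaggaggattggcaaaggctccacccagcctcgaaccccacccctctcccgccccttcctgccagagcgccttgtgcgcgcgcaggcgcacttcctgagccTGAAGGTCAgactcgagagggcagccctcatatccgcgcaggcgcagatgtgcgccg
Ndufb2: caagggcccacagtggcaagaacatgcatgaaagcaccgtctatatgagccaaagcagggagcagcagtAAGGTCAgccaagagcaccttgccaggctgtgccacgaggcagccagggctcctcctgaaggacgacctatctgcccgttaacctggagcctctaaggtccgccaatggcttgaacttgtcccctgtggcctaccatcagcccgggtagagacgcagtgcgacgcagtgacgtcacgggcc
Ndufa11: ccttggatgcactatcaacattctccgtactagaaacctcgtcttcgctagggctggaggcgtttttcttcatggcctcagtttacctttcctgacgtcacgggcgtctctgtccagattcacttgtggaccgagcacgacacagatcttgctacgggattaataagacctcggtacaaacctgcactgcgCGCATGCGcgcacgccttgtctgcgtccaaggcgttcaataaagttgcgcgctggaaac
Ndufb4 and Ndufb2 fell in every comparison, but so did most members without that site. With Ndufs5 unmeasured, the 2 members with it had midpoints of -0.55, -0.59 and -0.64 and those without it -0.62, -0.53 and -0.63 in the authors' deposited tables of 3-week males, 3-week females and 3-month males. The members with the NRF1 letters had medians of -0.44, -0.43 and -0.35 there, without a test of the difference.

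Between the sexes at 3 weeks no member was called for a difference in response. The difference of the deposited log2 fold changes, female minus male, had a median of 0.07 over 43 members and ran from -0.21 to 0.32. By a normal test of each difference, with Benjamini-Hochberg adjustment, 0 of 43 members and 0 of 13737 genes were called (0%), and 0 members and 237 genes (1.73%) had an unadjusted p under 0.05. A share of 1.73% is less than the 0.05 limit lets through when nothing differs, so the test may be too strict here. The median member's 95% interval, without adjustment, reached 0.42 to each side. A call also had to pass the adjustment over 13737 genes, so sex differences larger than 0.42 could have been missed too. Across the 43 genes, female and male values had r = 0.84 (Spearman's rho = 0.75), as a description of genes that share libraries within each table.

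Between the ages in males, 1 member was called for a difference in response as deposited. The difference at 3 months minus 3 weeks had a median of 0.02 over 42 members, with 20 negative and 22 positive values between -0.76 and 0.59. This rests on the scaling: with equal summed counts in each table, a check added after seeing the data, the median difference was 0.34, with 11 negative and 31 positive values. Then 6 members were called, all positive (Ndufa11, Ndufa2, Ndufa7, Ndufaf3, Ndufb2 and Ndufb7), against 34.6% of genes. Of all 12355 genes, 3418 (27.7%) were called for this difference, and 1 of 42 members was as deposited, Ndufa11, whose fold change was -0.03 at 3 months and -0.62 at 3 weeks (difference 0.59 ± 0.21 SE, 95% interval 0.17 to 1.00, adjusted p = 0.025, normal test of the deposited values). Ndufa4 and Ndufa10 came closest on the side of a deeper fall at 3 months, with differences of -0.36 ± 0.15 and -0.51 ± 0.22 (adjusted p = 0.0512 and 0.0597). An unadjusted p under 0.05 by the same normal test was found for 7 of 42 members, against 4646 of 12355 genes (37.6%). Across the 42 genes the 2 ages had r = 0.38 (rho = 0.35). The largest SE was 0.44 in the deposited table of 3-week males and 1.10 in that of 3-month males, and fold changes may have been moderated towards 0 to different degrees, so sizes across ages carry this limit.

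**Figure D2:**
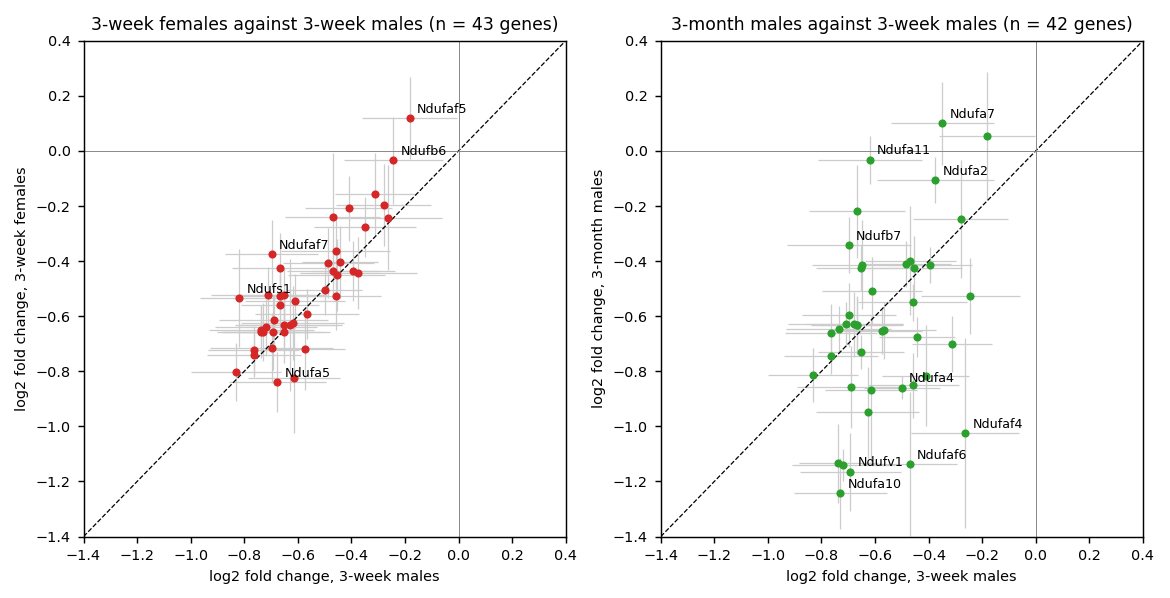
Log2 fold changes (knockout over control) of Nduf genes in 3-week females (left, y axis) and 3-month males (right, y axis) against 3-week males (x axis), with 1 SE bars and the line of equal values dashed. The left panel follows the line (r = 0.84), while the right one is spread out (r = 0.38), with Ndufa11 near 0 and Ndufa10 lowest at 3 months.

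The members' order at 3 months also went with transcript length. The 14 shortest tested members, of 315 to 683 bases, had a median of -0.42 and the 14 longest, of 1251 to 3632 bases, one of -0.84 in the authors' deposited table of 3-month males. Across 43 members the log2 fold change and the log2 length had r = -0.40 (rho = -0.45) at 3 months, against -0.03 in 3-week males and 0.01 in 3-week females. By the same medians, the shortest and longest 14 were at -0.49 and -0.65 in 3-week males and at -0.47 and -0.49 in 3-week females. More abundant members also lay lower: with the log2 mean count, r was -0.40, -0.42 and -0.40 in 3-week males, 3-week females and 3-month males. Over all 11708 tested genes with a length the same r at 3 months was -0.07, with medians of 0.09 in the shortest 10% of genes and -0.17 in the longest 10%. Ndufa11 is 545 bases long and Ndufa2, Ndufa6 and Ndufa7 are of 572, 590 and 528 bases, whereas Ndufa10 and Ndufv1 are of 2020 and 1661 bases. Other members went against this order: Ndufa1 (419 bases) and Ndufa4 (610 bases) were at -0.81 and -0.86, and Ndufb8 (2142 bases) and Ndufs4 (1698 bases) at -0.42 and -0.41 in the authors' deposited table of 3-month males. RNA quality values were not used here, and their part in this was not tested.

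**Figure D3:**
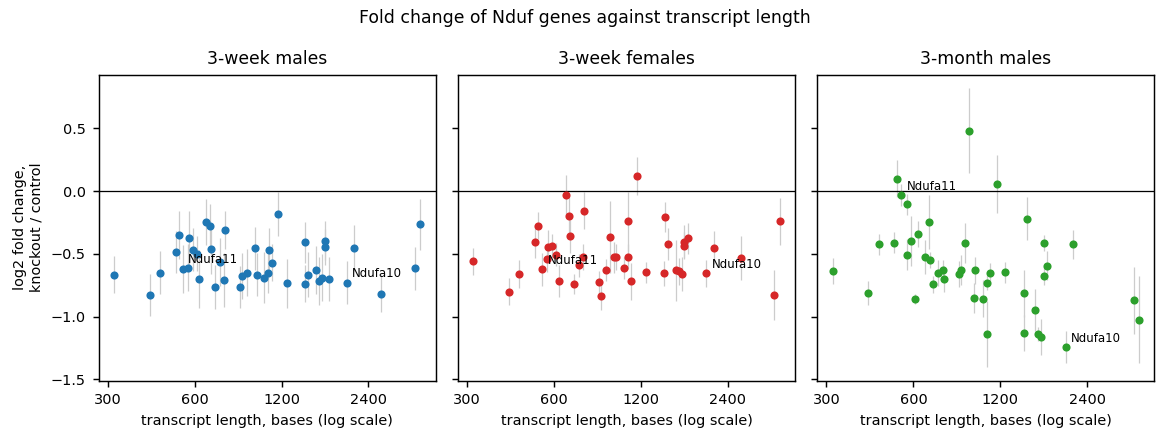
Log2 fold change (y axis, knockout over control, 1 SE bars) of each tested Nduf gene against transcript length in bases (log x axis) in the 3 comparisons. Longer members lie lower at 3 months (r = -0.40). At 3 weeks r was -0.03 in males and 0.01 in females, though in males the longest 14 had a median of -0.65 and the shortest 14 one of -0.49.

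The other respiratory complexes fell beside complex I. In 3-week males 3 of 4 genes of complex II, 8 of 9 of complex III, 9 of 10 of complex IV and 13 of 16 of complex V fell, with medians of -0.59, -0.66, -0.66 and -0.58 in the authors' deposited table. In 3-week females 2 of 4, 8 of 9, 8 of 11 and 11 of 14 fell, with medians of -0.40, -0.56, -0.65 and -0.58 in the authors' deposited table. At 3 months all tested genes of complexes II, III and IV and 14 of 16 of complex V fell, with medians of -1.19, -0.68, -0.72 and -0.68 in the authors' deposited table, so that complex II stood lowest of these lists and complex I at -0.63. Genes of the mitochondrial ribosome, which makes the mitochondrially encoded subunits, fell in 15, 34 and 40 of 76 cases in 3-week males, 3-week females and 3-month males, with medians of -0.35, -0.29 and -0.30 and 4 members higher at 3 months (authors' deposited tables). With equal summed counts the 3-month ribosomal median would lie above 0, since the shift of 0.49 exceeds it.

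**Figure D4:**
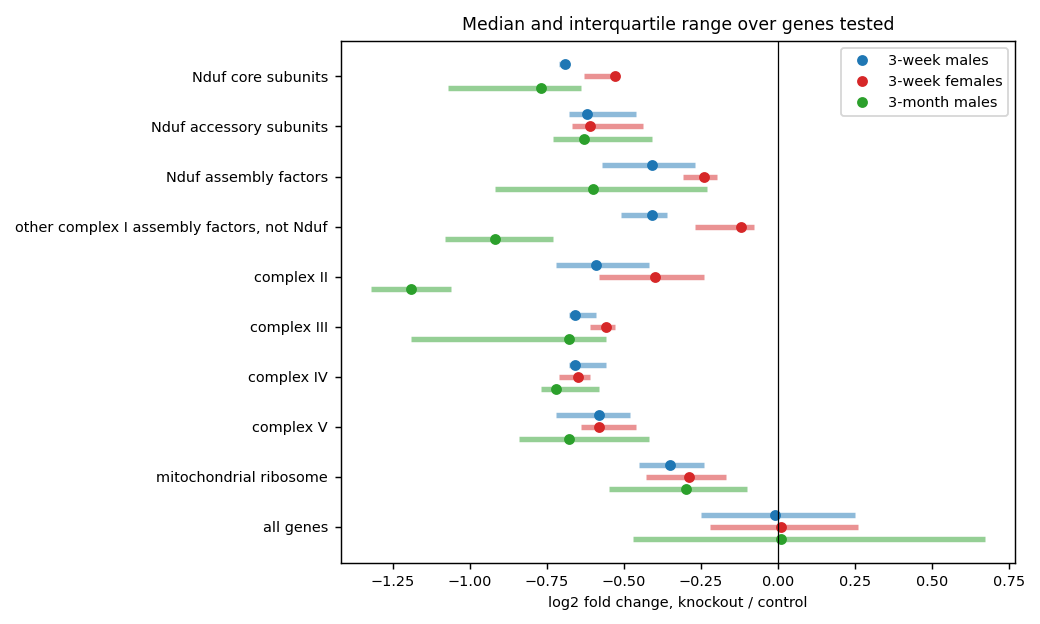
Median (point) and interquartile range (bar) of log2 fold change (x axis, knockout over control) over the tested genes of each list (y axis) in 3-week males, 3-week females and 3-month males. Lists of complexes I to V lie left of 0 and the median of all genes at 0; complex II is lowest at 3 months (-1.19).

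Markers of tubule cells and of other cell types moved in the same tables, and their part in the fall of Nduf genes was not tested. Of 9 proximal tubule markers, 9, 8 and 9 were negative in 3-week males, 3-week females and 3-month males, with medians over all 9 of -0.74, -0.29 and -2.59 in the authors' deposited tables, and 6 of 9 had the status Outlier at 3 months. The 5 tubular injury markers were positive in every table, with medians of 3.86, 2.53 and 5.38 in 3-week males, 3-week females and 3-month males, and those of 6 immune markers were 1.23, 0.95 and 2.78 (authors' deposited tables). Summed mean counts of the injury markers were 192159, 124382 and 65671 and of the immune markers 4315, 2983 and 5566. The 4 fat cell markers (Adipoq, Plin1, Ucp1 and Cidea) lay between -0.29 and 0.11 at 3 weeks, all with the status Outlier. At 3 months their median was 4.03, and only Plin1 was tested, at 4.67 ± 0.50. Their summed mean counts were 4855, 1855 and 888 in 3-week males, 3-week females and 3-month males (authors' deposited tables). At 3 months the means of Adipoq, Plin1, Cidea and Ucp1 were 704.4, 145.3, 30.2 and 7.9. Of the other tubule lists, thick ascending limb markers were negative in 5, 5 and 4 of 5 cases, all 4 distal convoluted tubule markers and all 5 intercalated cell markers were negative in each table and all 5 principal cell markers positive (authors' deposited tables). Some of these signs belong to values near 0, such as Foxi1 at -0.001 ± 0.444 at 3 months and Avpr2 at 0.011 ± 0.327 in 3-week females. In 3-week males, 3-week females and 3-month males, 0, 2 and 4 thick ascending limb markers had the status Outlier. The same held for 0, 1 and 2 distal convoluted tubule, 2, 3 and 5 intercalated and 1, 4 and 3 principal cell markers. Medians over all listed genes were 0.91, 0.69 and 3.46 for 5 fibroblast, -0.52, -0.79 and 0.49 for 4 endothelial and -0.51, -0.50 and -0.59 for 4 podocyte markers in 3-week males, 3-week females and 3-month males (authors' deposited tables). In the same order, 4, 0 and 3 fibroblast and 0, 0 and 2 endothelial markers had the status Outlier, and no podocyte marker did. Of the injury markers 2, 1 and 1 had it, and of the immune markers 0, 0 and 1. Over the 2 endothelial markers tested at 3 months the median was -0.01.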

How the data were processed

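Polyadenylated kidney RNA was made into stranded libraries (TruSeq Stranded mRNA), per the labels' protocols. The submitters' processing notes name the build mm10, STAR, HOMER and DESeq2, and no version is given in the sources used here. Per the file headers, the authors deposited a mean of normalized counts (treated as a non-negative signal), a log2 fold change, its standard error (kept as a score), a p-value with its adjusted value, and a status. Genes with the status Low (mean up to 10) or Outlier have no adjusted p. Groups came from the titles, whose replicate numbers do not repeat across groups.

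A gene was called at a deposited adjusted p under 0.05. The 27 symbols turned into dates were left out. Differences between tables were tested as the difference over the root of the summed squared SEs (2-sided normal p, Benjamini-Hochberg over all genes). A check on simulated fold changes with the deposited SEs recovered 81.0% (sexes) and 76.5% (ages) of planted changes of 1.5. Those fold changes were not moderated and the changes were larger than any member's, so the check does not cover moderated values or smaller differences. Lengths and coordinates are from GENCODE M21 on GRCm38 (length: median of RefSeq-matched coding transcripts) and promoters from RefSeq, with Python 3.11.15, pandas 2.3.3 and scipy 1.17.1. Members, role lists and markers were chosen with earlier results of these data known. Every member was to be named, and 1 is not reported here by name or value, though it stays in the counts; fuller values went to the nuclear core subunits, the 3 called members with the largest fall in each table, members called for a difference, and Ndufa4 and Ndufa4l2, while other values shown were chosen after they were seen. The labels name littermate kidneys without animal identifiers, so p-values measure the spread between samples, which may be technical.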

Additional observations from a re-analysis of the deposited data

Results flagged for a closer look

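Ndufa11 was flagged because its response differed between the ages in males by a test of the difference itself. The deposited log2 fold change was -0.03 at 3 months and -0.62 at 3 weeks, a difference of 0.587 ± 0.212 (SE, adjusted p = 0.025 over 12355 genes by the normal test). The same test called 3418 of these genes (27.7%) and 1 of 42 members, so a call is common in this comparison. RefSeq holds a near copy, Ndufa11b, and an exon of Ndufa11 overlaps Vmac on the opposite strand.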

How the results depend on the processing

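With Benjamini-Yekutieli adjustment 20 members fell in 3-week males. With equal summed counts 17 fell in 3-week males and 13 at 3 months, and the member medians were -0.442, -0.378 and -0.138 in 3-week males, 3-week females and 3-month males. With each fold change set against the median of genes of like transcript length, an alternative chosen after seeing the data, the median in females was -0.395. Between the ages, 2 members differed with the median of all genes at 0, 4 at an adjusted p under 0.1 and 6 with equal summed counts, added after seeing the data. Ndufb6 in females turned to 0.115 with equal sums and 0.106 with like lengths, and Ndufaf5 at 3 months to -0.039 with like lengths. At 3 months equal sums turned Ndufa11 to 0.462, Ndufa2 to 0.388, Ndufaf3 to 0.276, Ndufaf2 to 0.249, Ndufb7 to 0.153, Ndufa6 to 0.096, Ndufa3 to 0.084, Ndufs4 to 0.082, Ndufb11 to 0.081, and Ndufb2 and Ndufb8 to 0.07. The reversals with equal sums come from adding 1 constant to each table. The cause of the other changes was not tested. Counts stayed within 1.5 times of those given under thresholds of 0.01 and 0.1, a mean of at least 100 and the median of all genes at 0, save for the ages as stated; undoing the moderation, also chosen after seeing the data, left 0 and 1 differing members.

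Leaving out a replicate, another normalization and a filter on counts per library were not run, since the tables hold no value per library. No paired analysis was possible because the replicate numbers do not repeat across groups and the tables carry none.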

Other observations

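Of 11 other mitochondrial genes (matrix, transport and import), 6 of 11 fell in 3-week males, 8 of 11 in 3-week females and 8 of 8 tested at 3 months, with medians of -0.51, -0.44 and -0.73 in the authors' deposited tables. Of 80 cytosolic ribosomal genes, 1 of 77 tested fell and 1 rose in 3-week males and 2 of 69 fell and 5 rose in 3-week females, and at 3 months 63 had the status Outlier in the authors' deposited table and of the 13 tested 7 rose and 1 fell, with a median of 0.67, beside 1.20 over all with a value, of which 74 were positive and 3 negative.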
